A study of Mus musculus with 2 samples.

Results

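The genes described here are 10 members of transforming growth factor beta (TGF-β) and activin signalling, out of 32285 genes counted, in immune cells of mouse melanomas. They were chosen by symbol for their place in the pathway, and the choice was made with their levels in these libraries already known. The ligand genes are Tgfb1 and Inhba, the receptor genes Tgfbr1, Tgfbr2, Acvr1b and Acvr2a, and the target genes Tgfbi, Pmepa1, Smad7 and Skil. TGF-β1 and activin A are secreted dimers of one protein family. Each binds a type II receptor, which recruits and phosphorylates a type I receptor, and the pair phosphorylates SMAD2 and SMAD3, which enter the nucleus with SMAD4. Among the genes they induce are inhibitors that feed back on the pathway, and in tumours TGF-β is known for restraining T cells and shaping macrophages.

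A library of viable CD45+ cells from DGAT1-knockout (KO) B16-F10 tumours was set against a library of such cells from WT B16-F10 tumours. B16-F10 is a transplantable mouse melanoma line, and DGAT1 makes triglyceride from diacylglycerol. The edit was in the implanted tumour cells, so the sorted immune cells are those of the host. Tumours grew under the skin and were taken on day 14, 3 per group, with no map from cells to tumours. The design text gives the aim as reading the immune environment of DGAT1-deficient tumours in relation to checkpoint blockade. Each group has 1 library, so no difference below has a replicate check and no test was possible. Intervals are 95% and cover counting error only.

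Total counts were 202946827 UMIs (unique molecular identifiers, which count captured RNA molecules) in the KO library and 235652476 in the WT library, with 10913 cells kept in KO and 9032 in WT. Median depth was 10774 UMIs per kept cell in the KO library and 14178 in the WT library, and 24 barcodes were shared. Cells were sorted into classes by marker genes that include no member. In the melanoma-like cells that passed the sort, the targeted gene Dgat1 had 18.1 CPM (UMIs of the gene per 1000000 UMIs of the class; 15.1 to 21.4) in the KO library and 28.7 CPM (26.8 to 30.7) in the WT library. Transcripts of an edited gene can persist, so this level checks the label only in part. Only classes named for a cell type, with 100 or more cells on both sides, were compared. These 9 had 143 to 2350 cells in the KO library and 119 to 3002 in the WT library. Left out were T cells that met no T subset gate (299 in KO and 207 in WT) and ungated cells (1937 in KO and 1338 in WT). Named classes under 100 cells in a library were also left out. Among them were CD4 T-like (213 in KO and 63 in WT) and Treg-like cells (122 in KO and 90 in WT). Leading genes of the 9 compared classes included markers used for the gates, such as C1qa in macrophage-like and Cd8a in CD8 T-like cells. Such markers therefore do not check the names. Leading genes outside the gate markers included Gzmf in CD8 T-like and Vcam1 in macrophage-like cells of both libraries. They also included Hbb-bs in macrophage-like cells of the KO library and Mpo and Prtn3 in monocyte-like cells of the WT library. In values given side by side, KO and WT name these libraries, also of host cells that carry no edit. Levels are compared between libraries or classes within a gene, never between genes.

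Promoters are shown for Tgfbr1, Acvr2a and Inhba, because these are the receptors and the ligand that stood higher in macrophage-like cells of the KO library. The windows, from RefSeq on GRCm38.p6, run 5′ to 3′ on the plus strand from 250 bases before the gene start to 50 after it. They lie at chr4:47352972-47353271 for the Tgfbr1 entry at the annotated gene start, chr2:48813859-48814158 for Acvr2a and chr13:16011601-16011900 for Inhba. Capitals mark CAGAC or its reverse complement GTCTG, the core letters of a SMAD-binding element.
Tgfbr1: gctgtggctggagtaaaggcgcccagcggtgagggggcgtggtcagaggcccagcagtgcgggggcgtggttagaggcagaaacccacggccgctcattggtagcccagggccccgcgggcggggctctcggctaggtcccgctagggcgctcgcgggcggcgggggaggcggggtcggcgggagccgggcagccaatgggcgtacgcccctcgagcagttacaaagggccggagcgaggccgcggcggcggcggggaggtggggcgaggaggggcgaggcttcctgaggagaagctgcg
Acvr2a: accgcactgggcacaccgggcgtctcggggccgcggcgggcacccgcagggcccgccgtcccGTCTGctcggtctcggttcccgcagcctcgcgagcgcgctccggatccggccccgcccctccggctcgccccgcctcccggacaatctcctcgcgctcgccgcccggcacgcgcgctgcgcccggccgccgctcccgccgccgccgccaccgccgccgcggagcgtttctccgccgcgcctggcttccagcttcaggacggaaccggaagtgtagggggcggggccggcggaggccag
Inhba: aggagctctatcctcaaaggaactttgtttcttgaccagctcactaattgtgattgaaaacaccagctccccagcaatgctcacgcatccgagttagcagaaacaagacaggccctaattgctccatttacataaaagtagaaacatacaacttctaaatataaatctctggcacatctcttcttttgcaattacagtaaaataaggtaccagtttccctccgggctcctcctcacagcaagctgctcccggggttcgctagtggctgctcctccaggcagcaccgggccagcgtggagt

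The Acvr2a window holds 1 such match, and the Tgfbr1 and Inhba windows hold none. Of 32851 promoter windows of this length, 49.6% hold the SMAD letters on either strand, so a match is common. The AP-1 letters TGANTCA, searched on both strands, occur in 7.81% of windows and in none of these. No match of either motif overlapped another in them. The Tgfbr1 and Acvr2a windows are rich in CpG, with 34 and 54 CpG pairs, whereas the Inhba window has 7. RefSeq windows were matched for 7 of the 10 members, all except Pmepa1, Smad7 and Skil. A match describes letters only and says nothing about binding in these cells.

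Across the 9 classes there were 90 member-by-class values, of which 81 had at least 50 UMIs in a library. In the KO library, 20 were at least 1.5-fold higher and 4 at least 1.5-fold lower. Over all genes and classes, 6.68% of values were that much higher and 4.67% that much lower, and since these levels chose the members the counts are a description only. Pmepa1 was at least 1.5-fold higher in 5 of its 8 measured classes, more than any other member, and Tgfbr1, Acvr2a and Inhba in 3 each. Tgfbr2 and Skil passed 1.5-fold in none of these classes. Outside the 9 classes, T cells that met no T subset gate had Acvr2a at a ratio of 0.53 (0.35 to 0.80). Ungated cells had ratios of 2.46 for Inhba, 1.62 for Tgfbr1 and 1.51 for Pmepa1. Pmepa1 was at 0.97 (0.72 to 1.35) in CD4 T-like, 0.84 (0.64 to 1.11) in Treg-like and 0.88 (0.68 to 1.15) in plasmacytoid dendritic-like cells. It was at 0.91 (0.71 to 1.16) in T cells that met no T subset gate. In fibroblast-like cells (3 in KO and 15 in WT) it was at 2.29. Tgfbr2 was at 0.63 (0.53 to 0.75) in CD4 T-like, 1.61 in gamma-delta T-like and 2.11 in fibroblast-like cells. Treg-like cells had Tgfb1 at 1.53. The 9 values with too few UMIs were those of Inhba in NK-like, cDC1-like and melanoma-like cells, Acvr1b in NK-like, mature dendritic-like and neutrophil-like cells, Acvr2a and Pmepa1 in neutrophil-like cells and Tgfbr2 in mature dendritic-like cells. The counting interval of the ratio lay above 1 for 42 values, below 1 for 6 and spanned it for 33. The same count was not made over all genes, so these interval counts have no share to be read against.

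**Figure D1:**
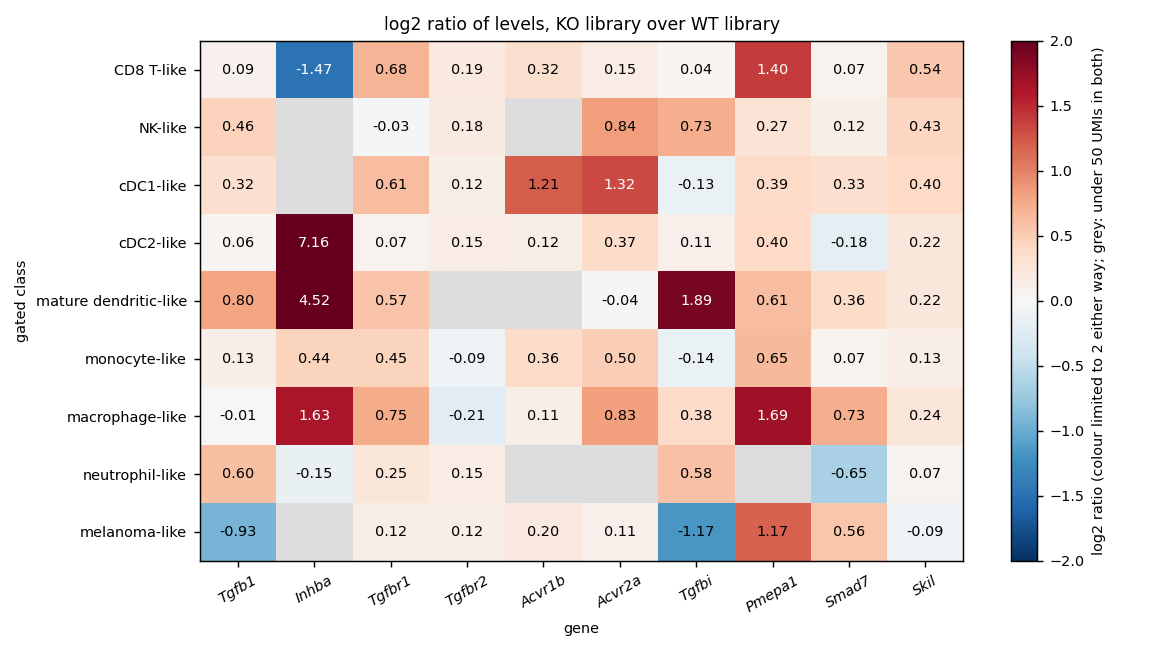
Grid of the log2 ratio of levels, KO library over WT library, for the 10 genes (columns) in 9 gated classes (downwards), with grey where neither library reached 50 UMIs. Pmepa1 is above 0 in all 8 measured classes, and the macrophage-like line has 5 values of at least 1.5-fold.

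Macrophage-like cells held the most members past 1.5-fold. There were 1604 of these cells in the KO library and 3002 in the WT library. Inhba, Tgfbr1, Acvr2a, Pmepa1 and Smad7 were at least 1.5-fold higher and none was lower, where 5.28% of all measured genes were higher and 5.09% lower. The median log2 ratio was 0.55 over the members and -0.01 over all 12612 genes. The other 5 members stayed within 1.5-fold, with Tgfb1 at 183 CPM in the KO library and 185 CPM in the WT library.

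The ligand gene Inhba, which encodes the βA chain of activin A, had 62.4 CPM (59.5 to 65.3) in macrophage-like cells of the KO library and 20.1 CPM (19.1 to 21.2) in those of the WT library, for a ratio of 3.10 (2.89 to 3.33). A UMI of Inhba was found in 10.4% of these cells in the KO library and 5.60% in the WT library. In cells thinned to 3000 UMIs the shares were 6.60% of 1545 cells of the KO library and 3.09% of 2846 cells of the WT library, with 59 KO and 156 WT cells left out as too shallow. The 10 cells with the most Inhba held 34.8% of its UMIs in the KO library and 43.1% in the WT library, and without them its level was 40.7 CPM in KO and 11.4 CPM in WT cells. Inhba was thus carried by a minority of macrophage-like cells in both libraries. In CD8 T-like cells, which served as background, the unthinned shares were 1.11% in KO and 0.777% in WT. Median depth was 18552 UMIs in KO and 22259 in WT for CD8 T-like cells, and 15708 in KO and 20544 in WT for macrophage-like cells.

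Tgfbr1 encodes the type I receptor for TGF-β. Its level in macrophage-like cells was 179 CPM (175 to 184) in the KO library and 107 CPM (104 to 109) in the WT library, for a ratio of 1.68 (1.62 to 1.74). The thinned share of cells with a UMI was 32.6% in the KO library and 23.0% in the WT library, against 63.9% in KO and 58.0% in WT before thinning. Acvr2a, a type II receptor for activins, had 54.5 CPM (51.8 to 57.2) in the KO library and 30.7 CPM (29.4 to 32.0) in the WT library. Both receptors were spread over many cells, with at most 7.82% of the UMIs in the top 10 cells of either library. The partner receptors were within 1.5-fold. Tgfbr2, the type II receptor for TGF-β, had 127 CPM in the KO library and 147 CPM in the WT library. Acvr1b, a type I receptor for activins, had 18.4 CPM in KO and 17.0 CPM in WT.

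Pmepa1, an induced gene whose product sequesters SMAD2 and SMAD3, had 26.5 CPM (24.6 to 28.4) in macrophage-like cells of the KO library and 8.20 CPM (7.54 to 8.90) in those of the WT library. Its ratio of 3.23 (2.89 to 3.60) was close to that of Inhba. Smad7, the inhibitory SMAD that recruits ubiquitin ligases to the type I receptor, had 40.9 CPM in the KO library and 24.7 CPM in the WT library. The Smad7 ratio of 1.66 was under 1.5-fold in thinned cells (log2 ratio 0.32) and as a mean over cells (0.50). Tgfbi, which encodes a secreted matrix protein, had 689 CPM in KO and 529 CPM in WT, and Skil, a SMAD co-repressor, had 104 CPM in KO and 88.2 CPM in WT.

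The make-up of the class differed between libraries. Cells with a UMI of Arg1, the arginase gene, were 56.2% of macrophage-like cells in the KO library and 47.0% in the WT library, and cycling cells (at least 2 UMIs summed over Mki67 and Top2a) were 22.9% in KO and 35.1% in WT. Within each of the 4 sub-gates, Arg1-positive, Arg1-negative, cycling and not cycling, Inhba, Tgfbr1, Acvr2a and Pmepa1 were at least 1.5-fold higher in the KO library. The sub-gate ratios ran from 1.72 to 1.82 for Tgfbr1, 1.60 to 1.86 for Acvr2a, 2.59 to 4.34 for Pmepa1 and 2.43 to 4.53 for Inhba. Smad7 passed 1.5-fold in 2 of the 4. The lowest and highest Inhba ratios, in cycling and Arg1-negative cells, rested on few cells. The top 10 cells held 92.3% of the Inhba UMIs in KO and 88.6% in WT for cycling cells. For Arg1-negative cells they held 80.9% in KO and 75.7% in WT. These shares were lower in Arg1-positive cells (41.7% in KO and 49.9% in WT) and in cells not cycling (37.2% in KO and 49.4% in WT). A small gate of cells with UMIs of both Lyve1 and Cbr2, markers of resident macrophages, held 24 KO cells and 72 WT cells, and there Pmepa1 had 16.8 CPM in KO and 19.9 CPM in WT, for a ratio of 0.84 (0.38 to 1.68). In that gate the ratio was 1.05 (0.67 to 1.59) for Tgfbr1 and 1.15 (0.68 to 1.88) for Acvr2a. In macrophage-like cells with UMIs of both Slc7a2 and Egln3, 236 in the KO library and 314 in the WT library, the receptors were also under 1.5-fold, with ratios of 1.11 (0.98 to 1.26) for Tgfbr1 and 1.18 (0.98 to 1.42) for Acvr2a. The summed level of 5 erythroid genes in all macrophage-like cells was 195 CPM in the KO library and 6.01 CPM in the WT library, and that of 6 cDC2 genes 179 CPM in KO and 101 CPM in WT, with none of them at 0 in either library. A list of 8 dissociation stress genes summed to 1389 CPM in KO and 1134 CPM in WT. The part of these differences in the levels above was not tested.

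**Figure D2:**
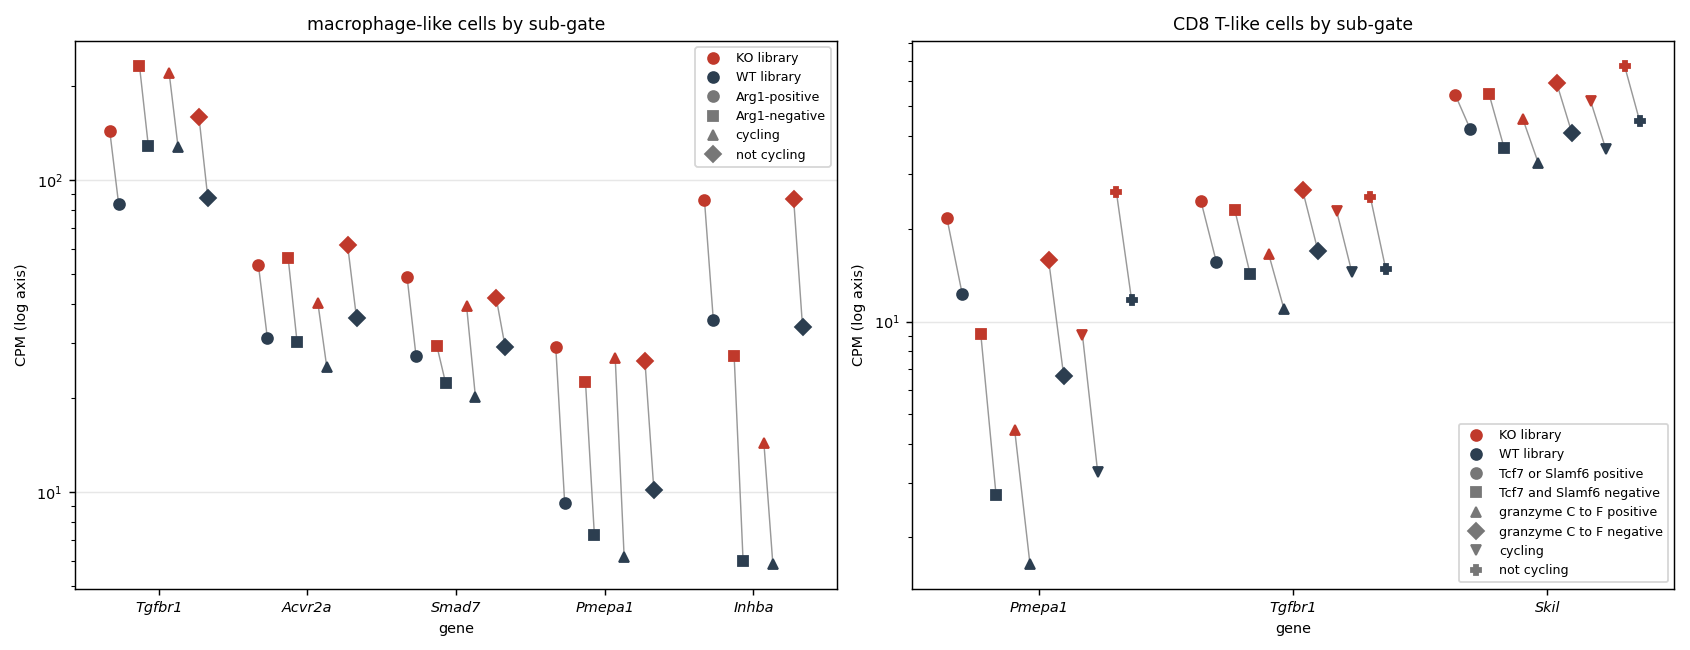
Levels of 5 genes in 4 sub-gates of macrophage-like cells (left) and of 3 genes in 6 sub-gates of CD8 T-like cells (right), in CPM on a log axis, with the KO library in red left of the WT library in dark blue and a grey line joining each pair. In all 4 macrophage-like sub-gates and all 6 CD8 T-like sub-gates, Pmepa1 is higher in the KO library.

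Inhba was concentrated in a group of phagocytes chosen with its level known. Phagocytes were taken as macrophage-like, monocyte-like, non-classical monocyte-like, cDC2-like and ungated cells with low T, B, NK and melanoma scores. Those with UMIs of both Slc7a2, an arginine transporter, and Egln3, an oxygen-sensing prolyl hydroxylase, numbered 782 in the KO library and 503 in the WT library. They held 53.1% of all Inhba UMIs in the KO library and 38.7% in the WT library. Inhba had 521 CPM in these cells of the KO library and 163 CPM in those of the WT library, and 79.1 CPM in KO and 29.4 CPM in WT phagocytes without both UMIs. These levels pool classes whose mix differed, since the double-positive cells were 236 macrophage-like, 313 monocyte-like and 219 ungated cells in the KO library and 314 macrophage-like, 99 monocyte-like and 89 ungated cells in the WT library. Within the class, the level in double-positive cells was 206 CPM in KO and 68.4 CPM in WT for macrophage-like cells (ratio 3.01), 738 CPM in KO and 564 CPM in WT for monocyte-like cells (ratio 1.31), and 809 CPM in KO and 325 CPM in WT for ungated cells (ratio 2.49). Few cells carried much of these levels. The top 10 double-positive cells held 47.5% of the Inhba UMIs in KO and 68.7% in WT for macrophage-like cells. The shares were 22.9% in KO and 65.7% in WT for monocyte-like cells, and 40.4% in KO and 66.4% in WT for ungated cells. The receptor gene Tgfbr1 had 67.1 CPM in the double-positive cells of the KO library and 60.6 CPM in those of the WT library. Phagocytes without both UMIs had 155 CPM of Tgfbr1 in KO and 106 CPM in WT. These Tgfbr1 levels pool the same classes. Within double-positive cells its ratio was 1.11 (0.98 to 1.26) for macrophage-like and 1.45 (1.10 to 1.92) for ungated cells. For monocyte-like cells it was 1.75 (1.27 to 2.46), on 46 WT UMIs of which 73.9% lay in 10 cells.

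**Figure D3:**
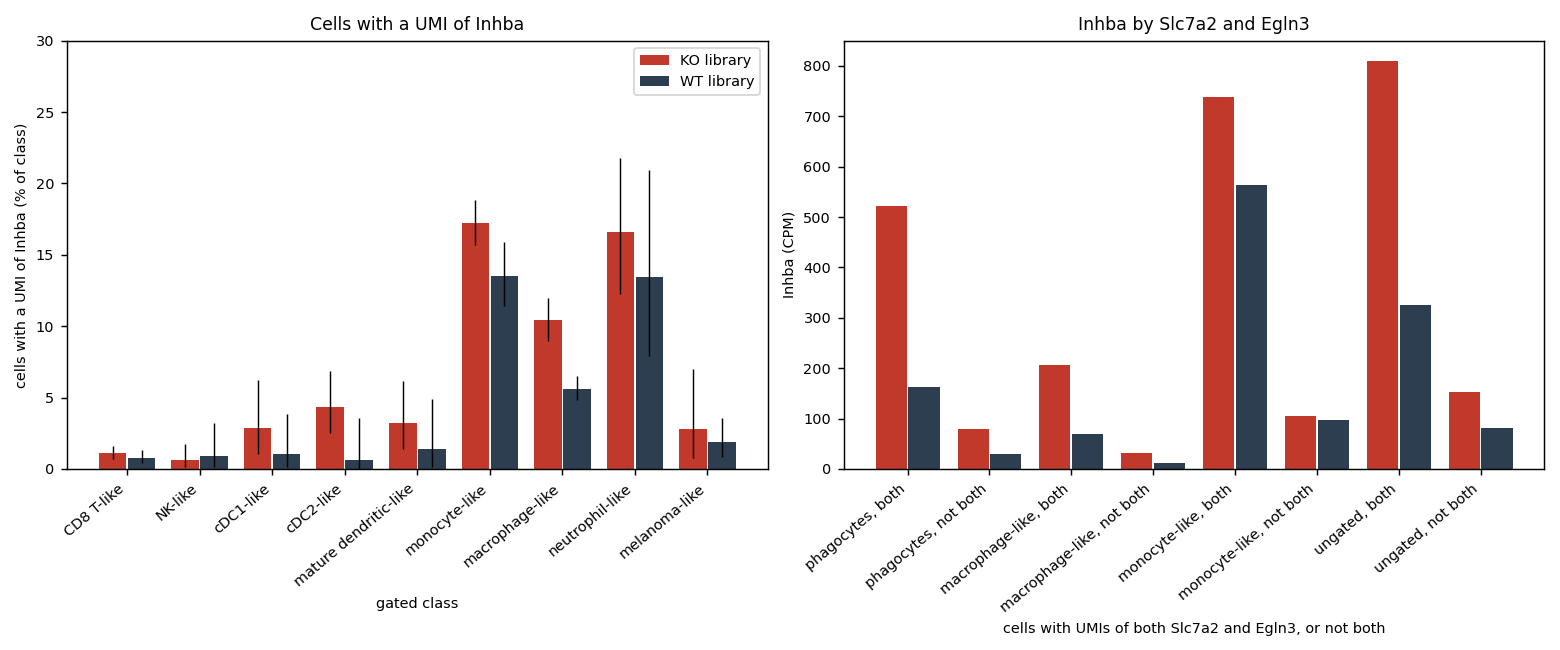
Left, the percentage of cells of each class with a UMI of Inhba, with 95% binomial intervals; right, the Inhba level in CPM in cells with UMIs of both Slc7a2 and Egln3 and in cells without both. In each pair the KO library (red) stands left of the WT library (dark blue), and double-positive monocyte-like cells stand at 738 CPM in the KO library and 564 CPM in the WT library, against 206 CPM in KO and 68.4 CPM in WT for double-positive macrophage-like cells.

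In monocyte-like cells, 2311 in the KO library and 930 in the WT library, Pmepa1 alone passed 1.5-fold, at 12.3 CPM (10.9 to 13.8) in the KO library and 7.78 CPM (6.22 to 9.63) in the WT library, where 5.84% of all measured genes were that much higher and 2.29% lower. Its ratio was under 1.5-fold in 4 of 10 alternatives. Inhba had 210 CPM in KO and 155 CPM in WT, Acvr2a 139 CPM in KO and 98.8 CPM in WT, and Tgfbr1 125 CPM in KO and 91.6 CPM in WT. These 3 ratios lay between 1.36 and 1.41, with intervals above 1. Tgfb1 (282 CPM in KO and 257 CPM in WT) and Tgfbi (724 CPM in KO and 797 CPM in WT) had their highest levels of all 9 classes here in both libraries.

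CD8 T-like cells numbered 2350 in the KO library and 1802 in the WT library. Pmepa1 and Tgfbr1 were at least 1.5-fold higher and Inhba at least 1.5-fold lower, where 2.94% of all measured genes were higher and 5.93% lower. Pmepa1 had 12.1 CPM (11.2 to 13.1) in the KO library and 4.60 CPM (4.02 to 5.24) in the WT library, for a ratio of 2.64 (2.27 to 3.08). It was found in 16.3% of cells in the KO library and 7.44% in the WT library, and after thinning in 4.59% of 2330 cells in KO and 1.63% of 1775 cells in WT, with 20 KO and 27 WT cells left out. All 6 sub-gates, by Tcf7 or Slamf6, by granzymes C to F and by cycling, had ratios from 1.76 to 3.32. Its level ran highest in non-cycling cells of the KO library (26.3 CPM, against 11.8 CPM in the WT library).

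Tgfbr1 in CD8 T-like cells had 23.3 CPM (22.0 to 24.6) in the KO library and 14.5 CPM (13.5 to 15.6) in the WT library, for a ratio of 1.60 (1.46 to 1.76). In thinned cells its log2 ratio was 0.36, and it was also under 1.5-fold as a mean over cells (0.49) and with sub-gates weighted alike (0.54). Skil stood just under 1.5-fold, at 54.5 CPM in the KO library and 37.5 CPM in the WT library, for a ratio of 1.46 (1.37 to 1.54). Smad7 (74.6 CPM in KO and 71.2 CPM in WT), Tgfbr2 (169 CPM in KO and 148 CPM in WT) and Tgfb1 (103 CPM in KO and 96.9 CPM in WT) had ratios of 1.05, 1.14 and 1.06.

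The lower Inhba level in CD8 T-like cells rested on few cells. Its UMIs numbered 31 in the KO library, for which the estimate of free RNA accounts in full, and 76 in the WT library, of which 94.7% lay in 10 cells. Without the top 10 cells of each library the log2 ratio turned from -1.47 to 1.82. For Tgfbi, free RNA accounted for 98.7% of the UMIs in CD8 T-like cells of the KO library and 92.6% in those of the WT library, so its levels there are read as background. Summed over 6 genes each, macrophage markers stood at 37.2 CPM in CD8 T-like cells of the KO library and 94.4 CPM in those of the WT library, and melanoma markers at 22.4 CPM in KO and 75.9 CPM in WT, with none at 0. Stress genes summed to 497 CPM in KO and 819 CPM in WT. Their part in the Pmepa1, Tgfbr1 and Skil levels was not tested.

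NK-like cells had Acvr2a at 32.6 CPM (27.0 to 39.1) in the KO library and 18.2 CPM (12.7 to 25.3) in the WT library. Tgfbi was also past 1.5-fold there, but free RNA accounted for all of its UMIs in both libraries. In NK-like cells 8 dissociation stress genes summed to 293 CPM in KO and 657 CPM in WT, macrophage markers to 84.8 CPM in KO and 186 CPM in WT, and melanoma markers to 45.7 CPM in KO and 214 CPM in WT, with none at 0. Their part in the Acvr2a level was not tested. Of all genes measured in NK-like cells, 6.91% were at least 1.5-fold higher and 2.50% lower. The other 6 measured members stayed within 1.5-fold, among them Pmepa1 at 83.6 CPM in KO and 69.2 CPM in WT and Smad7 at 115 CPM in KO and 106 CPM in WT. NK-like cells had the highest Tgfbr2 and Smad7 levels of the 9 classes in both libraries and CD8 T-like cells the next, although in the WT library the intervals of CD8 T-like cells overlapped those of macrophage-like cells for Tgfbr2 and of neutrophil-like cells for Smad7.

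In cDC1-like cells, the cross-presenting subset, the activin receptors were higher in the KO library, with Acvr2a at 53.0 CPM (45.9 to 60.9) in KO against 21.3 CPM (17.0 to 26.2) in the WT library and Acvr1b at 23.1 CPM (18.5 to 28.6) in KO against 10.0 CPM (7.19 to 13.6) in WT. Tgfbr1 had 70.2 CPM in the KO library and 45.9 CPM in the WT library, for a ratio of 1.53 that was under 1.5-fold in 4 of 10 alternatives. Macrophage markers summed to 210 CPM in KO and 312 CPM in WT, and melanoma markers to 32.6 CPM in KO and 94.0 CPM in WT, with none at 0, and their part was not tested. In this class 9.64% of measured genes were higher and 3.66% lower. Pmepa1 reached its highest levels of all 9 classes in cDC1-like cells, at 90.9 CPM in the KO library and 69.6 CPM in the WT library, intervals that overlap those of NK-like cells in each library.

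In cDC2-like cells, which prime CD4 T cells, Inhba was the member past 1.5-fold, where 8.88% of measured genes were higher and 2.62% lower. It had 323 UMIs in 17 of 391 cells of the KO library and 1 UMI in 154 cells of the WT library, with 97.8% of the KO UMIs in 10 cells. The ratio of 143 has a counting interval of 25.5 to 5676. Mature dendritic-like cells, known for migrating to lymph nodes with antigen, had 79 Inhba UMIs in 8 of 251 cells of the KO library and 2 UMIs in 145 cells of the WT library, for a ratio of 23.0 (6.15 to 193). Monocyte markers summed to 892 CPM in cDC2-like cells of the KO library and 1726 CPM in those of the WT library, and their part in these few cells was not tested.

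Mature dendritic-like cells also had more Tgfbi, at 45.3 CPM (38.5 to 52.9) in the KO library and 12.2 CPM (7.88 to 18.0) in the WT library, where free RNA accounted for 24.8% of its UMIs in KO and 96.8% in WT. Tgfb1 (70.2 CPM in KO and 40.4 CPM in WT) and Pmepa1 (32.0 CPM in KO and 20.9 CPM in WT) completed the 4 members past 1.5-fold, in a class with 10.4% of measured genes higher and 2.16% lower. Pmepa1 was under 1.5-fold in 4 of 10 alternatives (lowest log2 ratio 0.40) and Tgfb1 in 1 of 10. Macrophage markers summed to 85.4 CPM in these cells of the KO library and 201 CPM in those of the WT library, and melanoma markers to 34.5 CPM in KO and 151 CPM in WT, with none at 0, and their part was not tested.

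Melanoma-like cells, 143 in the KO library and 477 in the WT library, had 2 members lower and 1 higher past 1.5-fold. These are tumour cells that passed a CD45+ sort and need not represent the tumour. Tgfb1 had 9.44 CPM (7.36 to 11.9) in the KO library and 18.0 CPM (16.5 to 19.6) in the WT library, and Tgfbi had 5.26 CPM in KO (3.74 to 7.19) and 11.8 CPM in WT (10.6 to 13.2). Pmepa1 ran the other way, at 22.8 CPM (19.5 to 26.5) in the KO library and 10.1 CPM (8.99 to 11.3) in the WT library, with 60.4% of its UMIs in KO and 31.3% in WT lying in 10 cells. Without those cells the Pmepa1 log2 ratio was 0.38, though 10 cells are a larger share of the 143 KO cells than of the 477 WT cells. Of all measured genes 5.50% were at least 1.5-fold higher and 9.73% lower. Macrophage markers summed to 42.2 CPM in melanoma-like cells of the KO library and 181 CPM in those of the WT library, with none at 0. Free RNA accounted for 58.1% of the Tgfbi UMIs in KO and 22.9% in WT. Median depth was 4003 UMIs in KO and 8237 in WT. The part of these in the Tgfb1 and Tgfbi levels was not tested.

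Neutrophil-like cells, 253 in the KO library and 119 in the WT library, had the highest Inhba level of the 9 classes, at 315 CPM (285 to 347) in the KO library and 348 CPM (303 to 398) in the WT library. Its UMIs lay in 42 KO cells and 16 WT cells. Tgfb1 was past 1.5-fold at 107 CPM in KO and 70.3 CPM in WT, and Smad7 was lower at 40.7 CPM (30.4 to 53.4) in the KO library and 63.8 CPM (45.4 to 87.2) in the WT library. Without the top 10 cells, a larger share of the 119 WT cells than of the 253 KO cells, the Smad7 log2 ratio was -0.06. Under stricter marker gates it was -0.56. Tgfb1 was under 1.5-fold in 2 of 9 alternatives. Both rest on 39 to 136 UMIs per library, in a class where 11.8% of measured genes were higher and 5.92% lower.

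**Figure D4:**
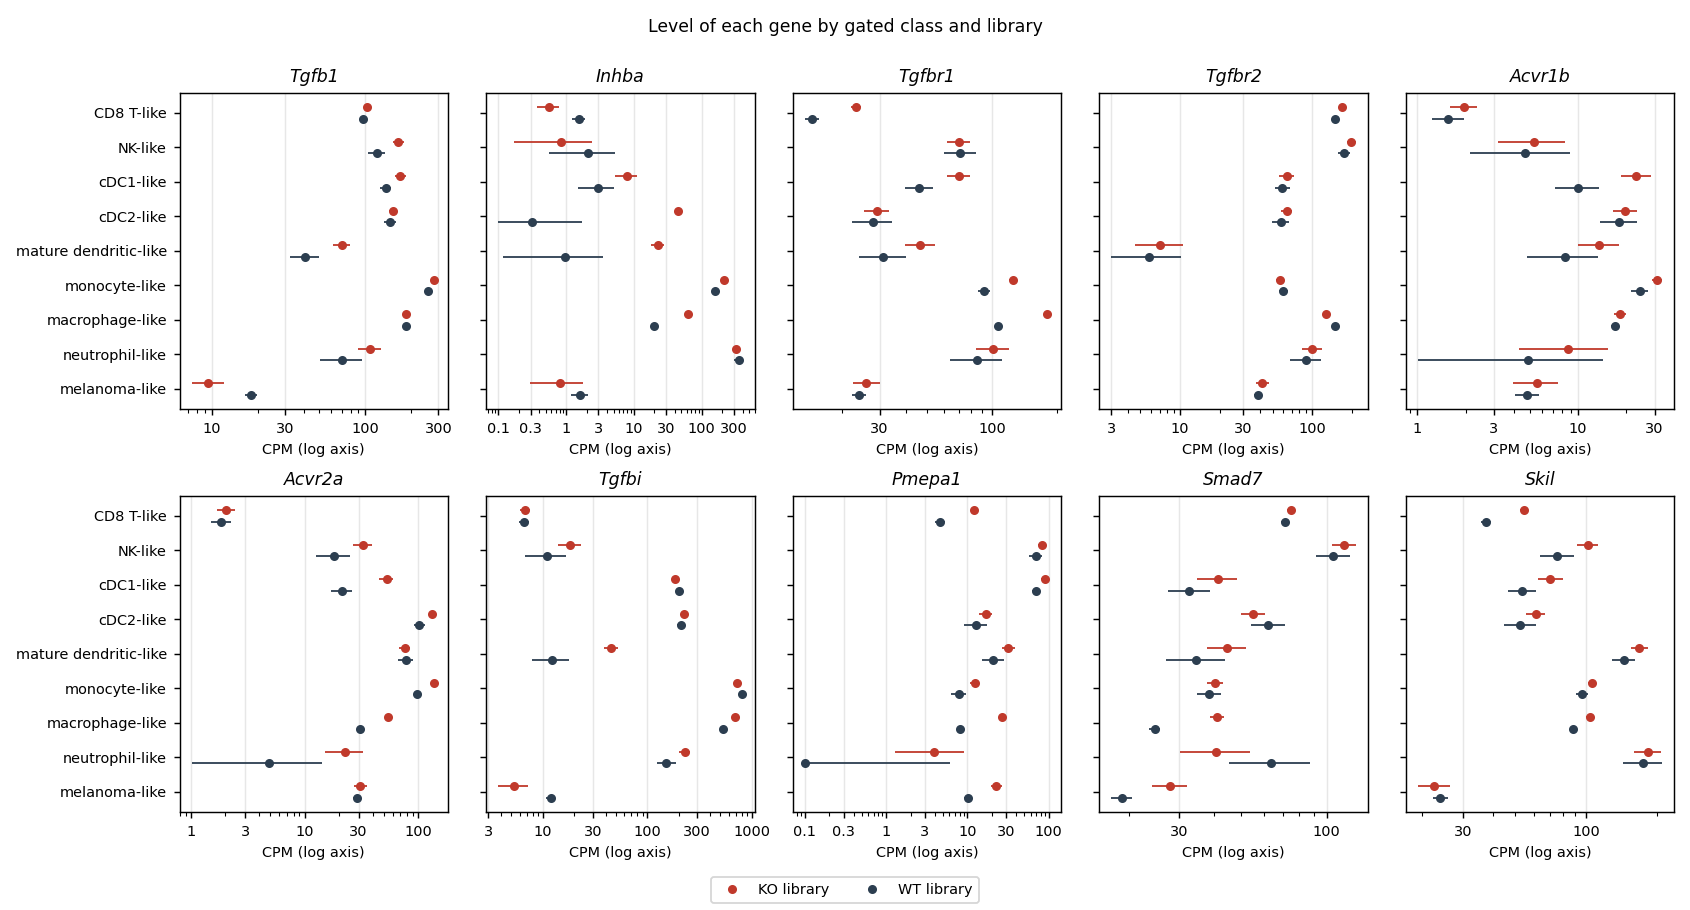
Levels of the 10 genes in CPM (log axis) in 9 gated classes, with 95% Poisson intervals; in each class the KO library (red) stands above the WT library (dark blue), and bounds or levels under 0.1 are drawn at 0.1. Neutrophil-like, monocyte-like and macrophage-like cells hold the highest Inhba levels in both libraries, and the macrophage-like cells the highest Tgfbr1 levels, which in the WT library lie within the neutrophil-like interval.

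The order of classes was read within each gene. For Tgfbr1 it began with macrophage-like, monocyte-like and neutrophil-like cells in both libraries and ended with CD8 T-like cells. In the WT library the monocyte-like and neutrophil-like levels overlapped, at 91.6 CPM in monocyte-like and 85.0 CPM in neutrophil-like cells, and the neutrophil-like interval (63.5 to 112) also overlapped those of macrophage-like and NK-like cells. In the KO library the interval of melanoma-like cells (22.5 to 30.0) overlapped that of CD8 T-like cells (22.0 to 24.6) at the low end. Over the 18 profiles of 9 classes in 2 libraries, which share depth and free RNA within a library, the gene most like Tgfbi was Pid1 (Pearson r 0.98), the gene most like Skil was Cyth1 (0.97), and that most like Inhba was Olr1 (0.94). The highest values were 0.92 for Smad7 (with Klre1), 0.90 for Pmepa1 (with Dpy19l3) and 0.88 for Acvr2a (with Ift172). These are descriptions chosen as the highest among all genes.

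Other genes of the pathway were counted in 6 lists holding 80 further genes. The lists were chosen with earlier results of these data known, so their counts are a description only. In macrophage-like cells, 3 of 8 measured genes of latency and activation were at least 1.5-fold higher and none lower (5.28% and 5.09% over all genes), namely Furin, which cleaves the TGF-β precursor (277 CPM in the KO library and 168 CPM in the WT library), Thbs1, an activator of latent TGF-β (187 CPM in KO and 101 CPM in WT), and the protease gene Mmp14 (220 CPM in KO and 146 CPM in WT). Of 4 other ligands measured there, 3 were lower and none higher, namely Gdf15 (43.0 CPM in KO and 69.5 CPM in WT), Gdf3 (16.2 CPM in KO and 29.0 CPM in WT) and Bmp2. The inhibitors Ldlrad4, which encodes a Pmepa1 relative (82.4 CPM in KO and 44.1 CPM in WT), and Smad6 were higher among 11 measured. Among 13 measured induced genes, 4 were higher and none lower, including Fn1, which encodes fibronectin (170 CPM in KO and 76.2 CPM in WT), and the vitamin D receptor gene Vdr (17.3 CPM in KO and 3.75 CPM in WT). The others were Itga1 and Xcl1, of which Xcl1 had 79.4% of its KO UMIs in 10 cells. The estimate of free RNA accounted for 38.9% of the Xcl1 UMIs in KO and for all of them in WT. None of 7 measured genes of the receptor list, and none of 7 of the list of SMADs and adaptors, which leaves out the inhibitory Smad6, passed 1.5-fold in these cells.

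In CD8 T-like cells, 4 of 10 measured induced genes were at least 1.5-fold higher and none lower, where 2.94% of all genes were higher and 5.93% lower. They were the integrin genes Itga1 (34.1 CPM in the KO library and 11.0 CPM in the WT library) and Itgae (2.83 CPM in KO and 1.64 CPM in WT), the co-receptor gene Tgfbr3 (5.83 CPM in KO and 2.56 CPM in WT) and the chemokine gene Xcl1 (360 CPM in KO and 191 CPM in WT). Of these, Itga1 and Itgae encode the integrin α chains CD49a and CD103, known on tissue-resident T cells. Smad3, which carries the signal, was higher at 34.0 CPM in KO and 20.7 CPM in WT, as was its co-repressor Ski at 54.8 CPM in KO and 33.1 CPM in WT. Ppp1r15a, a stress gene whose product also opposes the type I receptor, was lower at 5.61 CPM in KO and 16.4 CPM in WT. Also lower were the ligand gene Bmp7 (0.50 CPM in KO and 2.37 CPM in WT) and Ltbp3 (0.65 CPM in KO and 1.62 CPM in WT). Mmp14 was lower too, at 1.74 CPM in KO and 3.29 CPM in WT. Free RNA accounted for 86.7% of its UMIs in KO and 47.5% in WT. Of 7 measured other receptors, 2 were lower and 1, Tgfbr3, higher. Over all compared classes, 22 of 72 values of induced genes were at least 1.5-fold higher and 2 lower, where 6.68% of values of all genes were higher and 4.67% lower. Of 55 values of SMADs and adaptors, 5 were higher and 0 lower, and of 12 values of other ligands, 3 were higher and 6 lower. Inhibitors had 13 higher and 4 lower of 79, other receptors 7 higher and 2 lower of 44, and genes of latency and activation 6 higher and 3 lower of 52. Tgfbr3 is in the lists of induced genes and of other receptors, so its values count in both. These list counts too are a description only, for the reason given above.

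Reads of overlapping genes could add to 3 members, since no source used here gives the strand setting of the counting. Acvr2a overlaps Orc4 on the opposite strand, Inhba overlaps Gm48444 and B230303A05Rik on the opposite strand, and Acvr1b overlaps the microRNA gene Mir6962 on its own strand. Without strand, reads of antisense partners cannot be told apart from those of these members.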

How the data were processed

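The deposited tables of the authors hold raw counts (UMIs of each gene in each barcode, as whole numbers), written by Cell Ranger 7.2.0 per the file headers and on mm10 per the submitters' processing notes. No source used here names the annotation behind the counts. Genes were placed with GENCODE M21 and promoters with RefSeq.

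In each library, barcodes above a threshold (11887 UMIs in the KO library, 17765 in the WT library), or with at least 500 UMIs and a profile unlike free RNA (10000 simulations, false discovery rate 0.01), were called, giving 12436 in KO and 10425 in WT. A minimum of 250 genes and a maximum of 10% mitochondrial UMIs then left 11291 in KO and 9206 in WT. Scrublet (scanpy 1.11.5) removed 378 doublets (3.35%) in KO and 174 (1.89%) in WT, under the expected 9.03% in KO and 7.36% in WT. Classes came from marker scores (minimum 0.2, margin 0.1 to the next class, at least 3 detected markers, or 2 for NK and short lists), which gated 82.3% of cells in KO and 85.2% in WT. The rebuilt classes may differ from the study's.

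UMIs were summed per class and library into CPM. Intervals are exact Poisson for levels, exact binomial for shares and exact conditional for ratios. A ratio was read where a library had at least 50 UMIs. Free RNA, profiled in barcodes of at most 100 UMIs, was 2.22% of CD8 T-like UMIs in the KO library and 2.27% in the WT library. This estimate pooled C1q and melanoma genes. From C1q genes alone it was 1.74% in KO and 1.70% in WT, and from melanoma genes alone 3.52% in KO and 3.55% in WT. Shares of a member's UMIs laid to free RNA rest on the pooled estimate and are approximate. The ratio script was tested on simulated Poisson counts, with no variation added between cells, tumours or libraries. In macrophage-like cells 99.5% of 200 genes changed 2-fold passed 1.5-fold, among 11366 genes. That simulation covers counting error only. Named genes were the 10 members, list genes past 1.5-fold in a class described, and the most alike genes. The members, lists and markers were chosen with earlier results of these data known. Results were recomputed under 13 alternatives.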

Additional observations from a re-analysis of the deposited data

Results flagged for a closer look

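The results given here point in opposite directions in different classes, each at least 1.5-fold. The difference between classes was not tested, since each group has 1 library. Values are log2 ratios, KO library over WT library. Inhba was at 7.16 in cDC2-like, 4.52 in mature dendritic-like and 1.63 in macrophage-like cells, and at -1.47 in CD8 T-like cells, where free RNA accounts for all UMIs of the KO library and the ratio reversed in 4 alternatives, up to 1.82. Tgfbi was at 1.89 in mature dendritic-like and 0.73 in NK-like cells, and at -1.17 in melanoma-like cells, although free RNA accounts for all Tgfbi UMIs of NK-like cells in both libraries. Tgfb1 was at 0.80 in mature dendritic-like and 0.60 in neutrophil-like cells, and at -0.93 in melanoma-like cells. Smad7 was at 0.73 in macrophage-like cells and at -0.65 in neutrophil-like cells, or -0.06 there without the top 10 cells.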

How the results depend on the processing

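The number of member-by-class values at least 1.5-fold higher in the KO library was 20 and lay between 16 and 28 over 12 alternatives. In thinned cells it was 21, of which 12 were among the 20. Weighting sub-gates alike was run for macrophage-like and CD8 T-like cells only. Leaving out the top 10 cells took a larger share of cells from the library with fewer cells of a class, which was not adjusted for. The number at least 1.5-fold lower was 4. It became 2 under stricter marker gates, 2 with the top 10 cells left out and 5 in cells thinned to 3000 UMIs. Inhba in CD8 T-like cells reversed, to a log2 ratio of 0.34 in cells thinned to 3000 UMIs, 0.97 with doublets kept, 0.76 under stricter marker gates and 1.82 with the top 10 cells left out. The cause was not tested. Of 808 recomputed log2 ratios, 4 reversed, all of Inhba in these cells. Of 24 values past 1.5-fold, 13 stayed so in every alternative that gave a value. These were Inhba, Tgfbr1, Acvr2a and Pmepa1 in macrophage-like cells (lowest log2 ratios 1.26 for Inhba, 0.61 for Tgfbr1 and 0.64 for Acvr2a), Pmepa1 in CD8 T-like cells (lowest 0.93), Acvr2a in NK-like and cDC1-like cells, Acvr1b in cDC1-like cells, Inhba in cDC2-like and mature dendritic-like cells, Tgfbi in mature dendritic-like cells, and, lower in the KO library, Tgfb1 and Tgfbi in melanoma-like cells. Few UMIs limit the small classes. Inhba had a value in 6 of 11 alternatives in cDC2-like cells and in 9 of 11 in mature dendritic-like cells. With the top 10 cells left out, no WT UMI remained in either class, so that alternative gave no ratio. Whether these 2 Inhba values depend on their top 10 cells could therefore not be checked. No paired analysis was possible because each group has 1 library, and no replicate could be left out.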
